A study of Mus musculus with 53 samples.

Results

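Glucocorticoid response genes were followed in mouse lung through 8 genes, Nr3c1, Fkbp5, Tsc22d3, Sgk1, Zbtb16, Klf9, Cdkn1a and Hif3a, out of 18193 genes with a probe set on the array. They were chosen by name, with earlier results of these data known. The question was whether the handling of mice in a nose-only exposure system left a mark on genes that respond to stress hormone. The 8 genes had 32 probe sets, of which 24 passed the filter on dim signals. All 8 genes were among the 15030 that passed, and each was represented by its brightest probe set that passed. Female C57BL/6 mice breathed mainstream cigarette smoke at 4%, or air as a sham exposure ("forced air"), through the nose, 2 hours daily on 5 days of each week. Smoke groups were taken after 2 weeks (n = 6), 12 weeks (n = 5) and 24 weeks (n = 6), and forced air groups after 2, 12 and 24 weeks (n = 6 each). A pair of cessation groups, taken at 24 weeks (n = 6 each), breathed smoke for 12 weeks and then either forced air or room air for 12 weeks. Untreated mice (n = 6), labelled with time 0, had no exposure. All mice were wild-type animals of 1 strain and sex, as far as the labels say. The label "age" holds the exposure time, and no source used here gives the ages of the mice. The exposed mice were sampled later than the untreated ones, so nose-only exposure, age and sampling time cannot be told apart in a comparison with untreated mice. For the room air group the protocol text speaks of sham exposure and the group label of room air. The group label is used here.

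Glucocorticoids, corticosterone in mice, bind the glucocorticoid receptor in the cytoplasm, where it is held by Hsp90 and its co-chaperones. The receptor then enters the nucleus and binds glucocorticoid response elements, palindromes of paired arms spaced by a few bases, near its target genes. Corticosterone is released by stress and also follows a daily rhythm, and in the lung the hormone dampens inflammation and promotes maturation of the epithelium and fluid uptake.

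Whole-lung RNA from the small lobe was measured on 53 Affymetrix arrays, 1 per mouse. Signals are MAS5 values on a linear scale, scaled so that the trimmed mean of each array was 150. Between 67.5% and 76.2% of the probe sets were called present on an array. The 3′/5′ ratio of the Gapdh control probe sets, a measure of RNA integrity, was over 1.8 on 3 arrays of forced air at 12 weeks, 3 of forced air at 2 weeks and 1 of untreated mice. Cyp1b1, an enzyme induced by smoke components, had a signal of 358 ± 32.7 in smoke mice and 156 ± 23.6 in forced air mice at 24 weeks (SD, n = 6 each), so the smoke labels hold there (log2 change 1.13, SE 0.10, adjusted p = 1.77e-12). Log2 changes are differences of the means of log2(signal + 16), given with their SE. A gene was called at an adjusted p under 0.05 over the 15030 genes of the comparison (limma). In bulk tissue, fewer cells of a type and less RNA per cell cannot be told apart.

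Promoter sequences are shown because the genes were grouped by their regulation through the receptor. RefSeq windows (GRCm38.p6) from 250 bases before the start site to 50 after it were held for 6 of the 8 genes, in 14 windows, and none was held for Nr3c1 and Zbtb16. The palindromic glucocorticoid response element, searched as AGAACA, any 3 bases and TGTTCT, was sought together with its single arm TGTTCT, which reads AGAACA on the other strand, on both strands. The full element lay in 1 of the 14 windows, that of an Sgk1 transcript, and in 0.00913% of all 32851 windows in the table. A single arm lay in 4 of the 14 windows and in 19.0% of all windows. The element of Sgk1 stood at positions -189 to -175, counted from the start site, and holds 2 of the arms of its window. The 250 bases before the start site of Sgk1 (chr10:21993640-21993889, + strand), Fkbp5 (chr17:28486150-28486399, - strand) and Tsc22d3 (chrX:140600523-140600772, - strand) are written below from 5′ to 3′ with single arms and the full element in capitals.
Sgk1: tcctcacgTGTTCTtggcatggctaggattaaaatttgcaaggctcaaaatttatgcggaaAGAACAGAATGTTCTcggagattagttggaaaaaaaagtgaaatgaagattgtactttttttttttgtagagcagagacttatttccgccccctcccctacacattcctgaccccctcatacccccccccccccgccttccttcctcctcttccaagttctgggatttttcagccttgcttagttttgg
Fkbp5: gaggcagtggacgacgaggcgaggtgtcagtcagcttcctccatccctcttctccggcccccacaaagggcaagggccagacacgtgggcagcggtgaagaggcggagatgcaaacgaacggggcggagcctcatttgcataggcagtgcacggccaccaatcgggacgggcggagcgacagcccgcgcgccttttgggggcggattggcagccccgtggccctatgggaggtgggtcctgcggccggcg
Tsc22d3: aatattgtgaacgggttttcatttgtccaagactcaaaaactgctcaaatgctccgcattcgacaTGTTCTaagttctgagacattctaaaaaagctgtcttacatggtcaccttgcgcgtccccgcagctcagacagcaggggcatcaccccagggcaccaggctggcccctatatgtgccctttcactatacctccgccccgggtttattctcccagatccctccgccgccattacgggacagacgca
The Fkbp5 window held no arm and the Tsc22d3 window held 1, at -185 to -180. These are matches of letters, and absence from a window says nothing about elements elsewhere in the gene. Sgk1, the gene with the full element, was called in none of the 20 comparisons, whereas Fkbp5, with none in its window, was called in 11.

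Over the 20 comparisons, 36 of the 160 results of the 8 genes were called. Counts are set beside the share of all 15030 genes called, first in either direction, then higher and lower. Counts of the gene lists and markers further below are read beside the same shares, some of which are repeated there. Forced air at 2 weeks was higher than untreated in 1 of the 8 genes and lower in 1 (all genes 23.2%, with 10.8% higher and 12.4% lower). At 12 weeks it was also higher in 1 and lower in 1 (5.76%, with 2.2% higher and 3.56% lower). At 24 weeks 4 genes were higher in forced air than in untreated mice and none was lower (14.1%, with 4.71% higher and 9.39% lower). Smoke mice at 2 weeks were higher than untreated ones in 1 gene and lower in none (12%, with 5.85% higher and 6.14% lower). Smoke was higher in 1 gene and lower in 1 at 12 weeks (20.5%, with 10.8% higher and 9.68% lower) and likewise at 24 weeks (23.3%, with 11.3% higher and 12% lower). The 4 higher genes of 24-week forced air were Fkbp5, Tsc22d3, Zbtb16 and Hif3a.

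**Figure D1:**
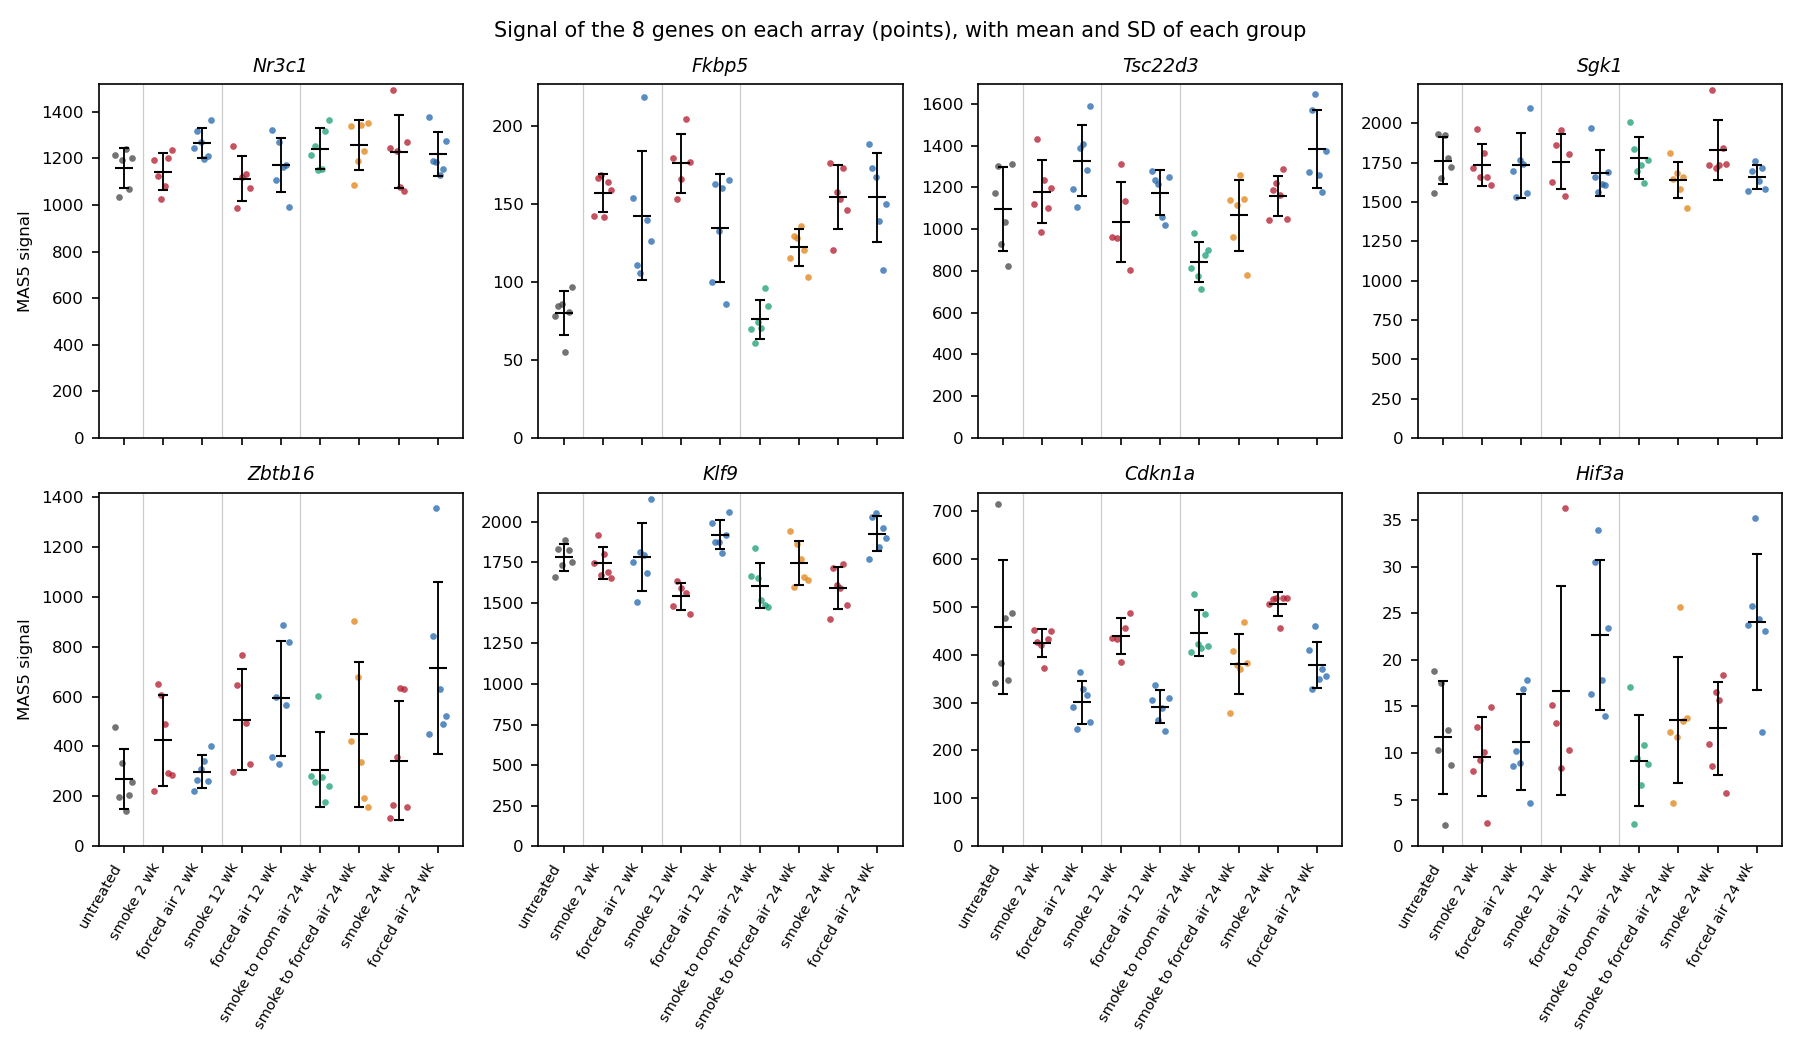
MAS5 signal (vertical axis, linear from 0) of the 8 genes on each of the 53 arrays, by group along the horizontal axis, with points for arrays, long ticks for group means and bars for the SD. Fkbp5 lay between 55.0 and 96.8 in untreated mice and between 60.8 and 96.0 in smoke-to-room-air mice, while the means of the other 7 groups were 122.2 or more.

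Smoke differed from forced air of the same time in 1 gene at 2 weeks, which was higher (all genes 9.12%, with 5.4% higher and 3.72% lower). At 12 weeks 2 genes were higher and 1 was lower with smoke (23%, with 12.5% higher and 10.5% lower), and at 24 weeks 1 was higher and 3 were lower (17.8%, with 11.1% higher and 6.68% lower). Forced air at 24 weeks was higher than at 2 weeks in 3 genes (40.6%, with 18.7% higher and 21.9% lower). Forced air at 12 weeks differed from 2 weeks in none (7.77%, with 4.12% higher and 3.65% lower). Of the cessation groups, smoke-to-forced-air mice differed from forced air mice at 24 weeks in none of the genes (1.98%, with 1.46% higher and 0.526% lower). Smoke-to-room-air mice were lower than forced air mice in 5 and higher in none (15.1%, with 9.8% higher and 5.32% lower). The 5 were Fkbp5, Tsc22d3, Zbtb16, Klf9 and Hif3a. These groups differ both in earlier smoke and in the air breathed afterwards, which cannot be told apart in this comparison. Smoke-to-room-air mice were lower than smoke-to-forced-air mice in 1 gene, Fkbp5 (0.965%, with 0.459% higher and 0.506% lower). Against smoke mice at 24 weeks, 1 gene was lower in smoke-to-forced-air mice (15.1%, with 7.68% higher and 7.45% lower) and 2 were lower in smoke-to-room-air mice (18.2%, with 9.12% higher and 9.06% lower). Against untreated mice, smoke-to-forced-air mice were higher in 1 gene (3.88%, with 2.08% higher and 1.8% lower) and smoke-to-room-air mice lower in 1 (7.37%, with 4.13% higher and 3.25% lower). The values had been seen before these last 2 comparisons were chosen. The smoke effect at 12 weeks differed from that at 2 weeks in none of the genes (2.2%, with 1.48% higher and 0.719% lower), and the effect at 24 weeks differed from that at 2 weeks in 1, Zbtb16, downward (6.41%, with 3.85% higher and 2.57% lower). Where no gene was called, the median log2 change of the 8 genes was -0.22 for smoke-to-forced-air against forced air at 24 weeks (all genes 0.02), -0.04 for forced air at 12 weeks against 2 weeks (all genes 0.02) and 0.01 for the smoke effect at 12 minus 2 weeks (all genes -0.01). The comparisons with forced air at 24 weeks share its arrays, as those with untreated mice share theirs.

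**Figure D2:**
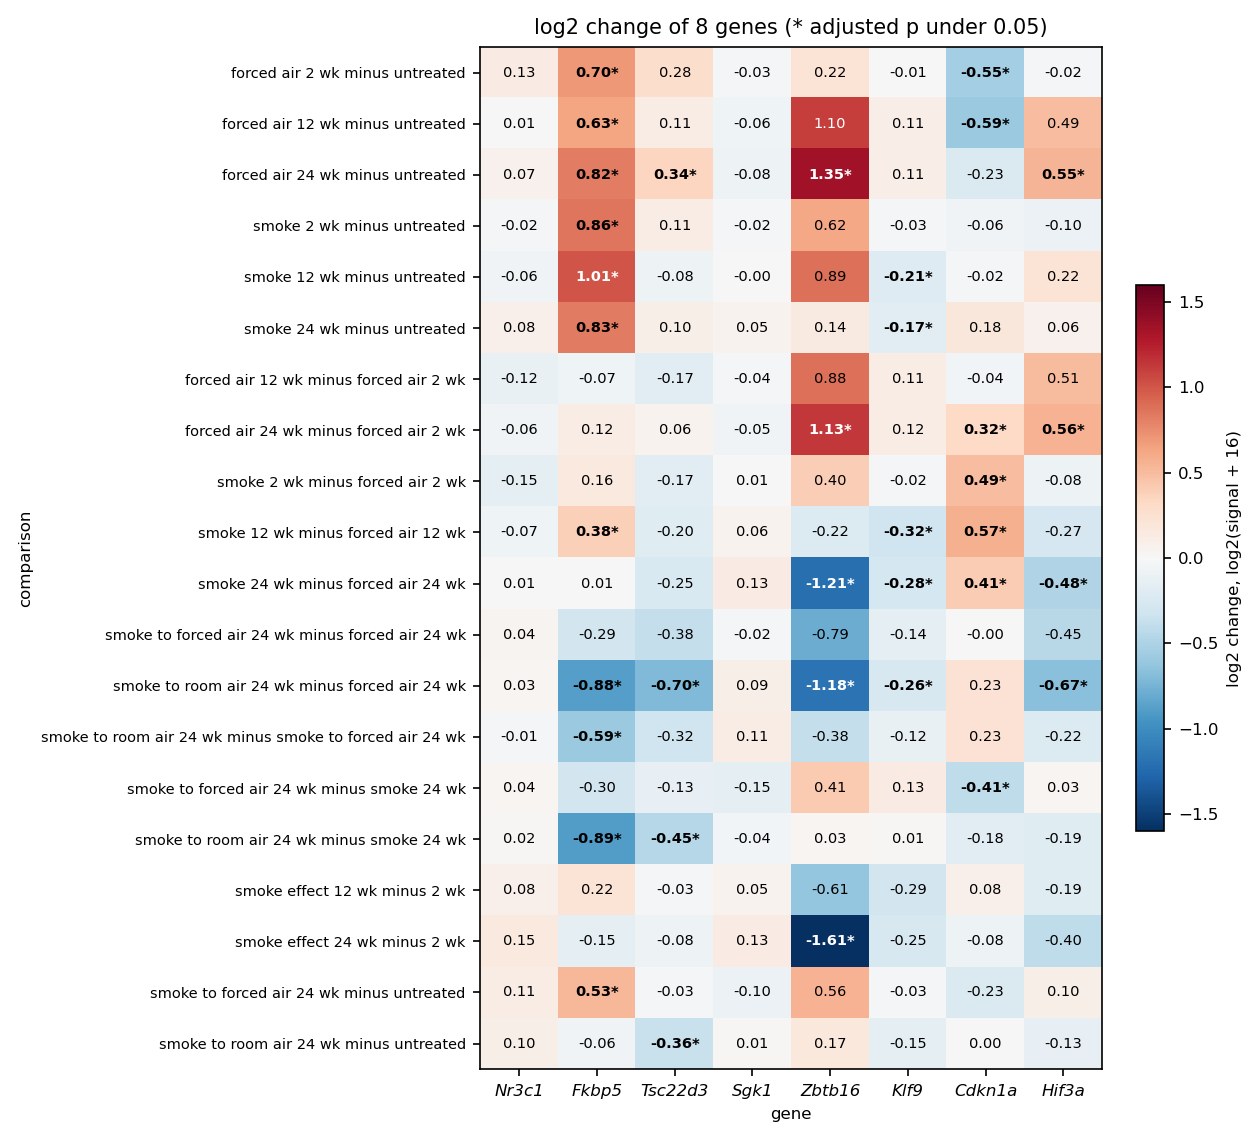
Log2 change of each gene (columns) in each of the 20 comparisons (rows), on the log2(signal + 16) scale, with the first-named group minus the second and red for higher. Stars mark an adjusted p under 0.05. The Fkbp5 column is positive in the 6 comparisons of smoke or forced air with untreated mice (0.63 to 1.01), and the row of smoke-to-room-air minus forced air at 24 weeks holds 5 called negative values (-0.26 to -1.18).

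Nr3c1, the glucocorticoid receptor itself, was called in no comparison. Its signal had group means between 1113 (smoke, 12 weeks) and 1267 (forced air, 2 weeks), and the ranges of all 9 groups overlapped between 1198.6 and 1237. The receptor had 1127, 1188 and 1378 as lowest, median and highest signal after 24 weeks of forced air, against 1036, 1197 and 1241 in untreated mice. That difference was 0.07 on the log2 scale (SE 0.07, 95% interval -0.07 to 0.21, adjusted p = 0.55). Of its 20 results, 1 had an unadjusted p under 0.05, that of smoke against forced air at 2 weeks (-0.15, SE 0.07, adjusted p = 0.173). Among the 5 other kept probe sets of Nr3c1, those with mean signals of 10.1 and 78.6 were called higher in forced air mice at 24 weeks than in untreated mice (log2 changes 0.29 and 0.39). The dimmer of these was also called for forced air at 12 weeks (0.35), and the 2 bright ones, with mean signals of 845 and 786, were not called in either.

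Of 19 listed genes for hormone activation, receptor chaperones and coregulators, 15 were measured. In forced air mice at 2 weeks 4 of them were higher and 3 lower than in untreated mice (all genes 10.8% and 12.4%). The 3 with the largest change were Stip1 (log2 change 0.50), Dnajb1 (0.47) and Fkbp4 (0.45), all Hsp90 or Hsp70 co-chaperones. At 12 weeks 1 rose, Hsd11b1 (0.22), the enzyme that regenerates active corticosterone. At 24 weeks 2 rose, the coactivators Crebbp (0.23) and Ncoa1 (0.18). With smoke, Hsd11b1 fell and Hsd11b2, the enzyme that inactivates the hormone, rose against forced air at each of the 3 times. Hsd11b1 changed by -0.20, -0.38 and -0.22 and Hsd11b2 by 0.24, 0.32 and 0.28 at 2, 12 and 24 weeks (adjusted p between 1.08e-05 and 0.0429). Smoke-to-room-air mice were lower than forced air mice in 4 of the 15 and higher in none (all genes 5.32% and 9.8%). The largest fall was in Dnajb1 (-0.81, SE 0.16, adjusted p = 0.000214).

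Fkbp5 encodes a co-chaperone that lowers the hormone affinity of the receptor and is itself induced by it, which closes a feedback loop. It was higher than in untreated mice in the smoke, forced air and smoke-to-forced-air groups, but not in smoke-to-room-air mice. Signals were 105.5, 133 and 218 (lowest, median, highest) in forced air mice at 2 weeks, against 55.0, 82.5 and 96.8 in untreated mice. They were 86.1, 147 and 165 in forced air mice at 12 weeks and 108, 159 and 189 at 24 weeks. All 6 forced air mice at 2 and at 24 weeks, and 5 of 6 at 12 weeks, lay above all 6 untreated mice. Log2 changes against untreated mice were 0.70 (95% interval 0.44 to 0.96, adjusted p = 9.59e-05) at 2 weeks, 0.63 (0.37 to 0.88, adjusted p = 0.00128) at 12 weeks and 0.82 (0.56 to 1.08, adjusted p = 1.5e-05) at 24 weeks.

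Smoke mice had Fkbp5 signals of 142, 162 and 168 at 2 weeks and 120.4, 156 and 176 at 24 weeks (lowest, median, highest), against the same untreated mice. The 5 smoke mice at 12 weeks had 153, 166, 177, 179.6 and 205. No smoke mouse at any of the 3 times overlapped with the untreated mice. The log2 change was 0.86 (SE 0.13, adjusted p = 2.29e-06) at 2 weeks, 1.01 (SE 0.14, adjusted p = 6.34e-08) at 12 weeks and 0.83 (SE 0.13, adjusted p = 1.62e-06) at 24 weeks. Against forced air of the same time, 1 of 3 smoke groups was called. Smoke minus forced air was 0.16 at 2 weeks and 0.01 at 24 weeks, neither called, with 95% intervals of -0.10 to 0.42 and -0.25 to 0.27. At 12 weeks it was 0.38 (SE 0.14, adjusted p = 0.0342). That call was lost without any 1 of 5 arrays, namely forced air replicates 1 and 5 and smoke replicates 1, 4 and 5 (adjusted p up to 0.133), with only the compared groups fitted (adjusted p = 0.084) and with the 3′/5′ ratios as covariates (adjusted p = 0.086).

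The cessation groups differed in Fkbp5. Smoke-to-room-air mice had signals of 60.8, 72.4 and 96.0 (lowest, median, highest), against 103, 124.4 and 136.1 in smoke-to-forced-air mice and 108, 159 and 189 in forced air mice at 24 weeks. No room air mouse overlapped with either group. The log2 change of room air was -0.59 (SE 0.13, adjusted p = 0.00726) against smoke-to-forced-air, -0.88 (SE 0.13, adjusted p = 2.41e-06) against forced air and -0.89 (SE 0.13, adjusted p = 5.89e-07) against smoke at 24 weeks. Against untreated mice it was -0.06 (95% interval -0.32 to 0.20, adjusted p = 0.837) in room air mice and 0.53 (0.27 to 0.79, adjusted p = 0.00994) in smoke-to-forced-air mice. Fkbp5 group means thus ran, from low to high, smoke-to-room-air 76.0, untreated 80.2, smoke-to-forced-air 122.2, forced air at 12 weeks 134.5, at 2 weeks 142 and at 24 weeks 154.4, smoke at 24 weeks 154.5, at 2 weeks 157.02 and at 12 weeks 176. Neighbours in this order overlapped in range except untreated and smoke-to-forced-air. The 10 Fkbp5 calls other than that of smoke against forced air at 12 weeks held with every single array left out. A second, dim Fkbp5 probe set (mean signal 6.50) had smaller changes of the same sign against untreated mice in the smoke and forced air groups, and was called in forced air at 24 weeks (0.27) and in smoke at 12 (0.37) and 24 weeks (0.23). It was not called for smoke-to-room-air against forced air (-0.22, adjusted p = 0.0527).

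Tsc22d3, also known as Gilz, encodes a leucine zipper protein that mediates part of the anti-inflammatory action of glucocorticoids. Its clearest difference was in the mice moved to room air. They had signals of 716, 845 and 982 (lowest, median, highest), against 1180, 1324 and 1646 in forced air mice at 24 weeks. All 6 room air mice lay below all 6 forced air mice, with a log2 change of -0.70 (SE 0.11, adjusted p = 6.86e-06). They also lay below all 6 smoke mice at 24 weeks, which had 1043, 1177 and 1289 (log2 change -0.45, SE 0.11, adjusted p = 0.00179). Against smoke-to-forced-air mice, with 781, 1129 and 1261, the ranges overlapped and the change was -0.32 (SE 0.11, adjusted p = 0.179). Smoke-to-forced-air mice differed from forced air mice by -0.38, with 5 of 6 below all of them (adjusted p = 0.0551), and this was called without smoke-to-forced-air replicate 1 or 4 or forced air replicate 4.

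Untreated mice had Tsc22d3 signals of 825, 1103 and 1313 (lowest, median, highest), a range that overlapped with those of all exposed groups. Forced air at 24 weeks was higher than untreated by 0.34 (SE 0.11, adjusted p = 0.0284), with 3 of 6 mice above all untreated ones, and smoke-to-room-air was lower by 0.36 (SE 0.11, adjusted p = 0.0336). Both calls were lost with only the compared groups fitted (adjusted p = 0.0754 and 0.0584) and without single arrays: the first without forced air replicate 2 or 3 or untreated replicate 3 or 5 (adjusted p up to 0.103), the second without untreated replicate 1, 2 or 6 or room air replicate 1, 3 or 4 (adjusted p up to 0.104). The second was lost too with the 3′/5′ ratios as covariates (-0.28, adjusted p = 0.12). At 2 weeks forced air differed from untreated by 0.28 (SE 0.11, adjusted p = 0.0523), a difference called without forced air replicate 1 or 2 or untreated replicate 2 or 6. Smoke against forced air was not called at any time (-0.17 to -0.25). The second brightest probe set, with a mean signal of 384, was called lower in room air mice against forced air (-0.97) and against smoke (-0.70) at 24 weeks, and the other, dim one in neither.

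Sgk1 encodes a kinase that keeps sodium channels at the cell surface, and it is a direct receptor target in many tissues. It was bright and called in none of the 20 comparisons. Of its 20 results, 1 had an unadjusted p under 0.05, that of smoke-to-forced-air against smoke at 24 weeks (-0.15, adjusted p = 0.138). Its signal had 1573, 1664 and 1763 as lowest, median and highest in forced air mice at 24 weeks, against 1558, 1750.3 and 1932 in untreated mice. Smoke mice at 24 weeks had 1718, 1740.2 and 2209, and room air mice 1619, 1750.2 and 2005. Group means lay between 1641 and 1830.1, all ranges overlapped, and the log2 change of forced air against untreated was -0.03, -0.06 and -0.08 at 2, 12 and 24 weeks. After quantile normalization in place of the array scaling, Sgk1 was called in 7 comparisons with log2 changes between -0.14 and 0.16, and among these were forced air below untreated mice at 2 and 12 weeks and smoke above forced air at all 3 times.

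Of 6 listed sodium transport genes, 5 were measured. Scnn1b, a sodium channel subunit, was higher in forced air mice than in untreated mice at 2 weeks (0.17) and lower at 24 weeks (-0.31). Scnn1a, the alpha subunit and a receptor target, fell in smoke-to-room-air mice against forced air (-0.29, SE 0.07, adjusted p = 0.00138) and against smoke-to-forced-air mice (-0.31, SE 0.07, adjusted p = 0.00531).

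Zbtb16, also known as Plzf, encodes a zinc finger transcription factor that is strongly induced by glucocorticoids in several human and mouse cell types. Forced air mice at 24 weeks had 451, 576 and 1356 (lowest, median, highest), against 141.4, 231 and 479 in untreated mice. The 2 ranges met only between 451 and 479. The log2 change was 1.35 (SE 0.37, adjusted p = 0.00945), with 5 of 6 forced air mice above all untreated ones. At 12 weeks it was 1.10 (SE 0.37, adjusted p = 0.0615) and at 2 weeks 0.22 (SE 0.37, adjusted p = 0.711). The difference at 12 weeks was called without untreated replicate 1 (adjusted p = 0.0333) or forced air replicate 3 (adjusted p = 0.0408), with only the compared groups fitted (adjusted p = 0.0469), with the block (adjusted p = 0.0137) and with the 3′/5′ ratios as covariates (1.55, adjusted p = 0.0126). The 24-week forced air mice were also above those at 2 weeks, which had 220, 286 and 400.1 (log2 change 1.13, SE 0.37, adjusted p = 0.0111). That call was lost with the 3′/5′ ratios as covariates (0.58, adjusted p = 0.332), with the last number of the sample title as a covariate (0.71, adjusted p = 0.14) and with ranges of that number as a block (0.66, adjusted p = 0.073).

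Smoke mice at 24 weeks had Zbtb16 signals of 114.2, 158.4, 163, 358, 632 and 632, against 451 to 1356 in forced air mice. Of these smoke mice 4 of 6 lay below all forced air mice (log2 change -1.21, SE 0.37, adjusted p = 0.0146). Smoke-to-room-air mice had 175, 267 and 603 and were lower than forced air mice by 1.18 on the log2 scale (change -1.18, SE 0.37, adjusted p = 0.0209). Smoke-to-forced-air mice spanned 156 to 904 and were not called (-0.79, adjusted p = 0.272). The smoke effect at 24 weeks differed from that at 2 weeks by -1.61 (SE 0.52, adjusted p = 0.049), a call that 16 of the 24 arrays in it could each end when left out. These calls rested on few arrays. Smoke against forced air was lost without smoke replicate 1 or 6 or forced air replicate 3, and room air against forced air without forced air replicate 2 or 3 or room air replicate 5, and also with the title number as a covariate (-0.98, adjusted p = 0.0522). The used probe set is of a design that can bind related transcripts. The 2 other kept probe sets, with mean signals of 148 and 16.1, had the same signs with smaller SE. They were called higher in forced air against untreated mice at 12 weeks (0.81 and 0.37) and 24 weeks (1.27 and 0.55), and lower in room air against forced air (-1.10 and -0.62) and in smoke against forced air at 24 weeks (-0.73 and -0.48).

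**Figure D3:**
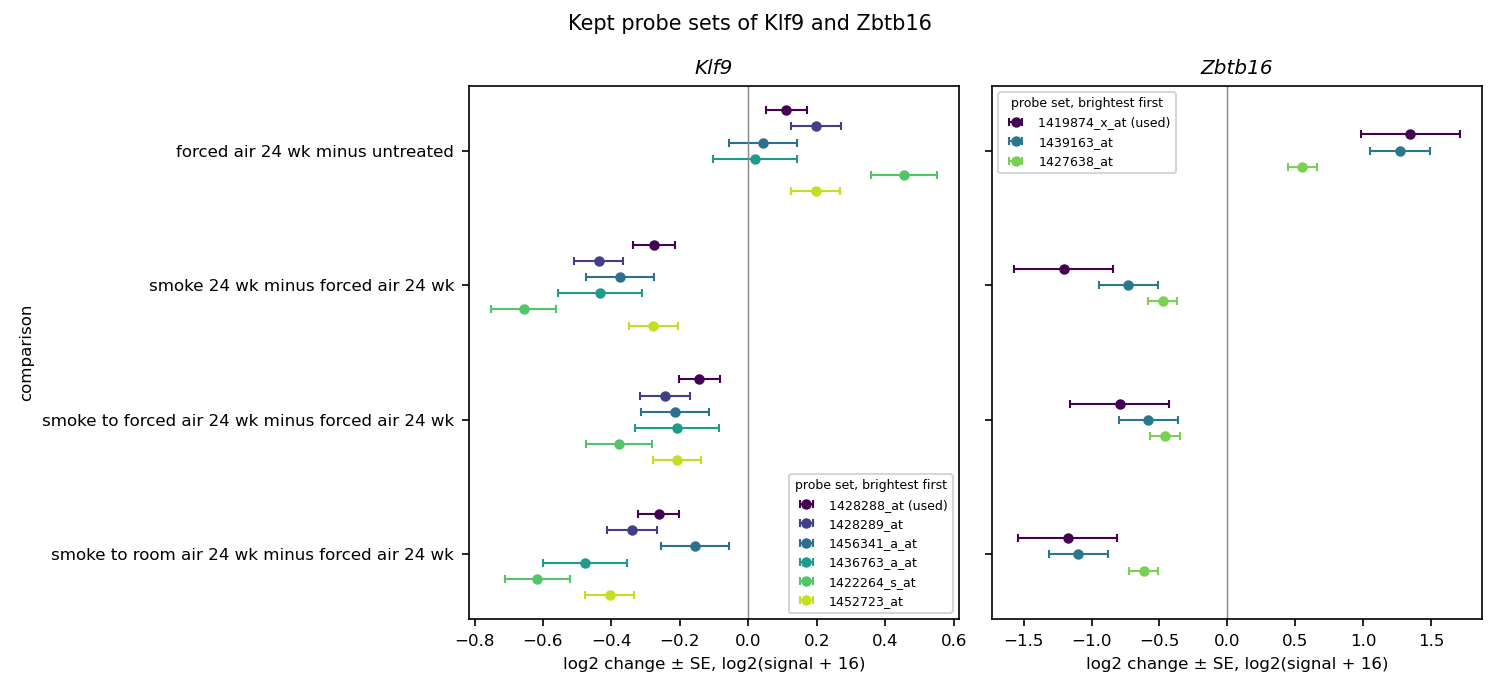
Log2 change with SE (horizontal axis) of each kept probe set of Klf9 (6) and Zbtb16 (3) in 4 comparisons at 24 weeks (vertical axis), with the probe sets from bright to dim. All 9 lie below 0 in the 3 comparisons against forced air and above 0 for forced air against untreated mice.

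Klf9, a Krüppel-like transcription factor induced by glucocorticoids and by the clock, was lower with smoke. At 12 weeks the 5 smoke mice had 1433, 1484, 1563, 1592 and 1634, against 1808, 1899 and 2059 (lowest, median, highest) in forced air mice. At 24 weeks smoke mice had 1400.2, 1602 and 1741, against 1771, 1933 and 2054 in forced air mice. Neither pair of groups overlapped. The log2 change was -0.32 (SE 0.06, adjusted p = 0.000128) at 12 weeks and -0.28 (SE 0.06, adjusted p = 0.00057) at 24 weeks, and at 2 weeks it was -0.02 (SE 0.06), not called. The smoke effect at 12 and at 24 weeks differed from that at 2 weeks by -0.29 (adjusted p = 0.0596) and -0.25 (adjusted p = 0.0587), neither called. The difference at 12 weeks was called without forced air replicate 6 of 2 weeks or smoke replicate 3 of 12 weeks, and that at 24 weeks without replicate 6 of smoke or forced air at 2 weeks, or smoke replicate 5 or forced air replicate 1 at 24 weeks. Smoke-to-room-air mice had 1472, 1589 and 1839 and were lower on average than forced air mice, with overlapping ranges (-0.26, SE 0.06, adjusted p = 0.00156). Forced air mice were not called against untreated mice, which had 1658, 1792 and 1888, at any of the 3 times (-0.01, 0.11 and 0.11). With quantile normalization the change at 2 weeks was -0.12 and called (adjusted p = 0.0409). Smoke was below untreated by -0.21 at 12 weeks (adjusted p = 0.0131) and -0.17 at 24 weeks (adjusted p = 0.0397). The call at 24 weeks was lost without any 1 of 7 arrays, smoke replicates 1, 4 and 6 and untreated replicates 2, 4, 5 and 6, and the call at 12 weeks without smoke replicate 5. The call at 24 weeks was lost too with only the compared groups fitted, the block or the 3′/5′ ratios as covariates (adjusted p between 0.0603 and 0.0819).

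The 6 kept Klf9 probe sets had negative changes with smoke at 24 weeks against forced air, from -0.28 to -0.66, and all were called. One of them, with a mean signal of 76.2, was also higher in forced air mice at 24 weeks than in untreated mice (0.45, adjusted p = 0.00114), and the other 5 were not. Markers of several cell types were lower in the comparison with smoke at 12 weeks. At 12 weeks 7 of 7 endothelial markers and 5 of 5 smooth muscle markers fell in smoke mice against forced air mice, and at 24 weeks none of the 7 and 2 of the 5. Of all genes 10.5% were lower at 12 weeks and 6.68% at 24 weeks. The summed signal of the smooth muscle markers was 1245 to 1904 in smoke mice and 1956 to 2646 in forced air mice at 12 weeks, and 1435 to 1886 in smoke mice and 1676 to 2404 in forced air mice at 24 weeks. That of the endothelial markers was 3716 to 4790 in smoke mice and 4571 to 6636 in forced air mice at 12 weeks, and 4017 to 5076 in smoke mice and 4202 to 4936 in forced air mice at 24 weeks. Alveolar type 1 and ciliated cell markers also fell at 12 weeks, 4 of 7 and 4 of 6, and at 24 weeks 1 of 7 and 0 of 6. At 12 weeks their summed signals did not overlap, with 9709 to 10937 in smoke mice and 11231 to 15942 in forced air mice for alveolar type 1 and 956 to 1247 in smoke mice and 1406 to 1837 in forced air mice for ciliated cells. The lowest group mean of any of the 12 endothelial and smooth muscle markers was 30.3, of Cnn1, so none of the 12 was at 0. The part of these cell types in the Klf9 result was not tested. At 12 weeks the Gapdh 3′/5′ ratio was over 1.8 on 3 forced air arrays and on 0 smoke arrays. The part of RNA integrity in the lower marker signals was not tested.

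Cdkn1a encodes p21, an inhibitor of cyclin-dependent kinases that answers to p53 and to glucocorticoids. It moved against Fkbp5 in forced air. Forced air mice had 244, 303 and 363 (lowest, median, highest) at 2 weeks and 242, 297 and 337 at 12 weeks, against 341, 430.1 and 715 in untreated mice. All forced air mice at 12 weeks and 5 of 6 at 2 weeks lay below every untreated mouse. The log2 change was -0.55 (SE 0.11, adjusted p = 0.000319) at 2 weeks and -0.59 (SE 0.11, adjusted p = 4e-04) at 12 weeks. At 24 weeks forced air mice had 329, 362 and 460, not called against untreated (-0.23, SE 0.11), and were higher than forced air mice at 2 weeks by 0.32 (SE 0.11, adjusted p = 0.0167). That rise was lost without forced air replicate 3 of 24 weeks or replicate 2 of 2 weeks.

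Cdkn1a was the 1 gene of the 8 that smoke raised against forced air at all 3 times. Smoke mice had 372, 429 and 452 at 2 weeks, above all forced air mice, with a log2 change of 0.49 (SE 0.11, adjusted p = 0.00216). The 5 smoke mice at 12 weeks had between 385 and 488, again above all forced air mice (0.57, SE 0.12, adjusted p = 0.000164). At 24 weeks smoke mice had 455, 517 and 519, with 5 of 6 above all forced air mice (0.41, SE 0.11, adjusted p = 0.00603). Of 6 measured alveolar macrophage markers, 2, 2 and 4 were higher with smoke at 2, 12 and 24 weeks (all genes 5.4%, 12.5% and 11.1%), and none was lower. Their summed signal was 6010 to 6421 in smoke mice and 4966 to 6058 in forced air mice at 2 weeks. It was 5873 to 6862 in smoke mice and 4831 to 5957 in forced air mice at 12 weeks, and 5534 to 7770 in smoke mice and 4641 to 6402 in forced air mice at 24 weeks. The part of these cells in the Cdkn1a result was not tested. Against untreated mice, smoke was not called at any time (-0.06, -0.02 and 0.18). Without untreated replicate 2 the difference at 24 weeks was 0.32 and called (adjusted p = 0.016). Smoke-to-forced-air mice, at 277, 380.1 and 469, were lower than smoke mice (-0.41, SE 0.11, adjusted p = 0.00715), while the -0.18 of smoke-to-room-air mice against smoke was not called. Of 13 listed p53 targets 10 were measured. Smoke at 24 weeks against forced air raised 1, Phlda3 (0.24), and lowered 2, Btg2 (-0.44) and Perp (-0.18), beside 11.1% and 6.68% of all genes. None of the 10 was called in forced air mice at 12 weeks against untreated mice (all genes 5.76%).

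Hif3a encodes an inhibitory member of the hypoxia-inducible factor family that rises with glucocorticoids in several tissues. It was dim, called present on 20 of 53 arrays. Forced air mice at 24 weeks had 12.3, 24.1 and 35.2 (lowest, median, highest), present on 4 of 6 arrays, against 2.24, 11.4 and 18.9 in untreated mice, present on 1 of 6. The log2 change was 0.55 (SE 0.17, adjusted p = 0.022), with 5 of 6 mice above all untreated ones. Signals of this size are below or near the 16 added before the log2, so the sizes of the Hif3a changes depend on that number, and with 1 added in its place this change was 1.13 and still called (adjusted p = 0.0405). The call was lost without forced air replicate 3 or untreated replicate 4. At 12 weeks the change was 0.49 (SE 0.17, adjusted p = 0.0711). Forced air mice at 24 weeks were also above those at 2 weeks, which had 4.61, 9.54 and 17.8 (0.56, SE 0.17, adjusted p = 0.0058), a call lost without the arrays with a Gapdh ratio over 1.8 (0.50, adjusted p = 0.0657). Smoke at 24 weeks, with 5.74, 13.3 and 18.4, was lower than forced air (-0.48, SE 0.17, adjusted p = 0.0355), and so was smoke-to-room-air, with 2.38, 9.14 and 17.1 (-0.67, SE 0.17, adjusted p = 0.00348; -1.41 with 1 added, adjusted p = 0.00838). The call against smoke was lost without any 1 of 6 arrays, smoke replicates 1, 2 and 6 and forced air replicates 2, 3 and 4. With 1 in place of 16 added to the signals it was -0.91 and also lost (adjusted p = 0.0953). Of 12 hypoxia response genes, all measured, 3 were higher and 1 lower in forced air mice at 24 weeks than in untreated mice (all genes 4.71% and 9.39%). The one that fell was Adm, a vasodilator peptide (-0.94, SE 0.15, adjusted p = 1.36e-05), and Egln3 (0.45) and Ankrd37 (0.38) were among those that rose. Adm was higher in smoke-to-room-air mice than in forced air mice (1.11, SE 0.15, adjusted p = 2.23e-07).

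Of 26 other genes known to respond to glucocorticoids, 25 were measured. In forced air mice at 2 weeks 2 were higher and 2 lower than in untreated mice (all genes 10.8% and 12.4%). At 12 weeks 1 was higher and 1 lower (2.2% and 3.56%), and at 24 weeks 2 were higher (4.71%, with 9.39% lower). The rises at 24 weeks were the metallothionein Mt2 (0.51, SE 0.12, adjusted p = 0.00271) and the insulin signalling adaptor Irs2 (0.38, SE 0.10, adjusted p = 0.00704). Mt2 was also higher at 2 weeks (0.33), and Mfsd2a, a lipid transporter, was lower at 2 weeks (-0.47) and 12 weeks (-0.87). The median log2 change of the 25 was 0.11, 0.09 and 0.11 at 2, 12 and 24 weeks, beside -0.03, 0.00 and -0.02 over all genes. Smoke against forced air raised 1 and lowered 1 at 2 weeks, and raised 2 and lowered 5 at 12 and at 24 weeks. Of all genes 9.12%, 23% and 17.8% were called at 2, 12 and 24 weeks. The decoy receptor Il1r2 rose at each time (0.52, 1.02 and 0.71), and Crispld2, a secreted protein, fell at 12 and 24 weeks (-0.83 and -0.82).

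In smoke-to-room-air mice 10 of the 25 were lower and 1 was higher than in forced air mice at 24 weeks (median -0.20, all genes 0.01). Of all genes 5.32% were lower and 9.8% were higher. Per1, a clock gene that the receptor induces directly, had a mean signal of 95.1 ± 29.7 in room air mice, against 246 ± 50.2 in forced air mice (SD, n = 6 each), with all 6 below (log2 change -1.26, SE 0.23, adjusted p = 9.04e-05). Map3k6, a kinase, averaged 45.9 ± 9.45 in room air mice and 124.04 ± 50.7 in forced air mice (-1.09, SE 0.23, adjusted p = 0.000508). Mfsd2a was the one that was higher (0.88, SE 0.14, adjusted p = 1.18e-05). Against smoke-to-forced-air mice, 2 of the 25 were lower, Per1 (-1.01) and Scnn1a (-0.31), and Mfsd2a was higher (0.76). Smoke-to-forced-air mice differed from forced air mice in none of the 25.

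Genes of the circadian clock moved in the same comparisons. Of 18 listed 17 were measured, Per1 being counted above. In forced air mice at 2 weeks 9 were higher and 3 lower than in untreated mice (all genes 10.8% and 12.4%). At 12 weeks 11 were higher and 4 lower (2.2% and 3.56%), and at 24 weeks 10 were higher and 3 lower (4.71% and 9.39%). In smoke mice 10, 9 and 6 were higher (5.85%, 10.8% and 11.3%) and 3, 4 and 2 lower (6.14%, 9.68% and 12%) than in untreated mice at the 3 times. Arntl, the transcription factor at the core of the clock, had signals of 28.4, 39.9 and 48.3 (lowest, median, highest) in forced air mice at 24 weeks, against 51.1, 107 and 193 in untreated mice. Per2, a repressor in the clock, had 717, 799.98 and 959 in forced air mice, against 245, 371 and 523 in untreated mice. Neither pair of ranges overlapped. Log2 changes were -1.16 (SE 0.15, adjusted p = 2.43e-07) for Arntl and 1.16 (SE 0.12, adjusted p = 1.28e-09) for Per2.

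In smoke-to-room-air mice 12 of the 17 clock genes were lower and 4 higher than in forced air mice at 24 weeks (all genes 5.32% and 9.8%). Against smoke-to-forced-air mice 9 were lower and 2 higher (0.506% and 0.459%). Per2 had 144.3, 193 and 210.5 in room air mice, against 400.1, 504 and 687 in smoke-to-forced-air mice, and Arntl had 155, 215 and 227 in room air mice, against 46.7, 71.4 and 89.9 in smoke-to-forced-air mice. Per2 in room air mice was also below untreated mice (-0.93, SE 0.12, adjusted p = 7.37e-07), whereas Fkbp5 was not called there. Smoke-to-forced-air mice were lower than forced air mice in 2 of the 17 and higher in 1 (all genes 0.526% and 1.46%). No source used here gives the hours of exposure and of tissue sampling. The part of the time of day in the results for the 8 genes was not tested.

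**Figure D4:**
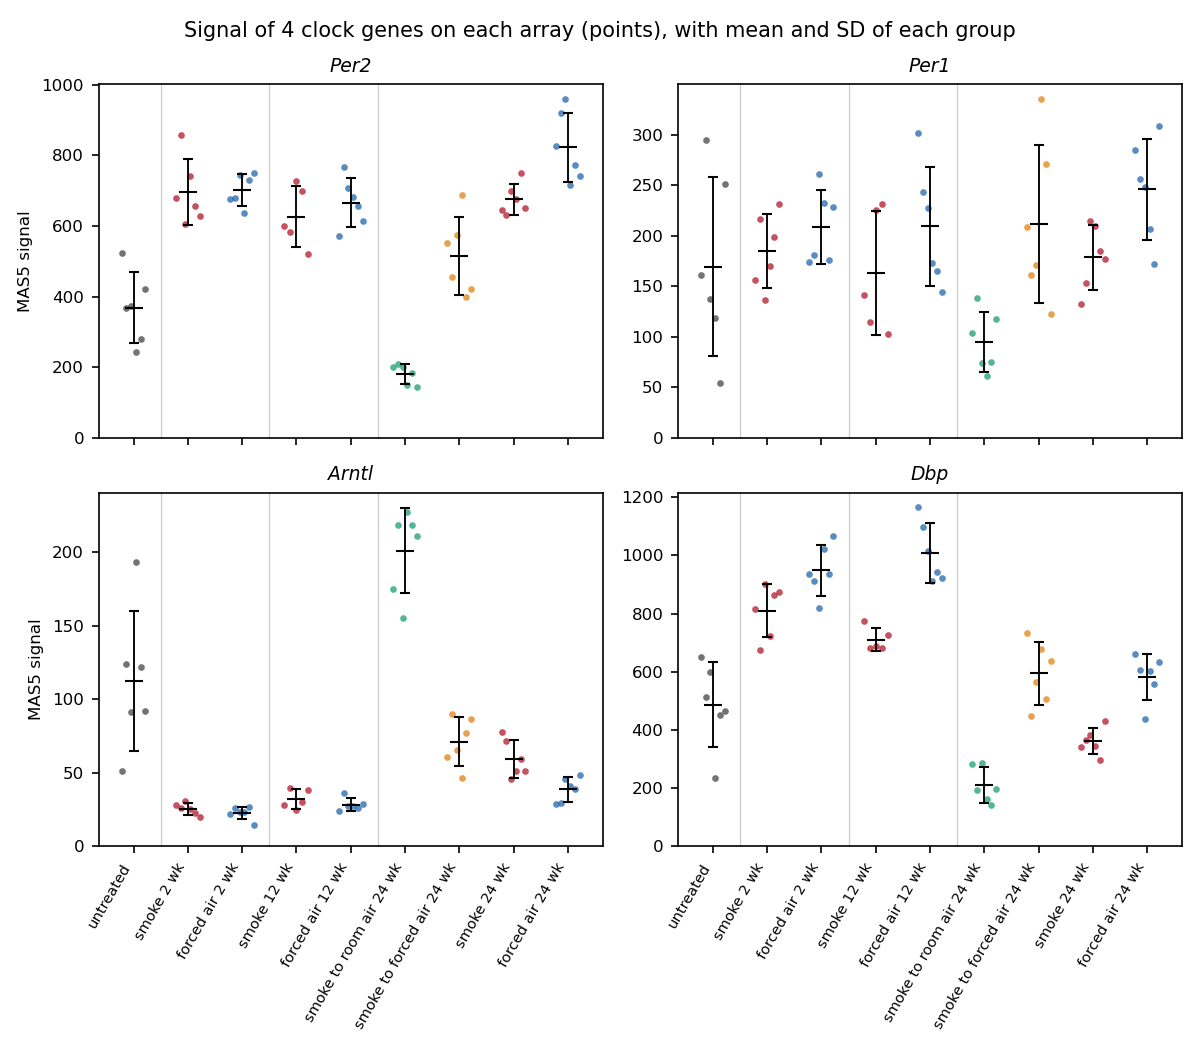
MAS5 signal (vertical axis, linear from 0) of Per2, Per1, Arntl and Dbp on each array, by group along the horizontal axis, with points for arrays, long ticks for means and bars for the SD. Arntl lies between 155 and 227 in smoke-to-room-air mice and at 89.9 or less in every smoke, forced air and smoke-to-forced-air mouse, and Per2 lies at 210.5 or less in room air mice.

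Over the 53 arrays, which share the group means, the gene most like Fkbp5 was Per2 (Pearson r = 0.77), followed by Mpp6 (0.76) and Lonrf1 (0.75). With each group's mean removed these were 0.22, 0.42 and 0.16. Tsc22d3 was most like Per1 (0.84, and 0.78 with group means removed), then Pmvk (0.83) and Fbxo30 (0.82). Nr3c1 was most like Bcl2l2 (0.87), Nedd4 (0.84) and Rabgap1 (0.82), and Sgk1 most like Calr (0.84), Cltc (0.79) and Fth1 (0.77). Klf9 was most like Cav1 (0.83), Ogn (0.83) and Timp3 (0.81), and Cdkn1a most like Lox (0.80), Osmr (0.79) and Cerk (0.76). With group means removed, the values for Cdkn1a were 0.41, 0.54 and 0.53, and those for Nr3c1, Sgk1 and Klf9 were between 0.72 and 0.88. The likeness was lower for Zbtb16, with Six4 (0.69), Rgcc (0.68) and Prex2 (0.67), and for Hif3a, with Mettl21e (0.66), Jade2 (0.65) and the clock gene Cry2 (0.64). Between the 8 genes themselves, Tsc22d3 and Klf9 had the highest r over all arrays (0.59, and 0.54 with group means removed). Fkbp5 and Tsc22d3 had 0.47 (0.23 with group means removed). With group means removed the highest r was that of Sgk1 and Klf9 (0.70, and 0.22 over all arrays). The most negative was that of Nr3c1 and Zbtb16 (-0.58, and -0.49 over all arrays).

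Immediate early genes, which answer within minutes to handling, injury or growth factors, were listed as a check of acute responses. Of 18, all measured, 1 was higher in forced air mice at 2 weeks than in untreated mice, and none was called at 12 or 24 weeks (all genes 23.2%, 5.76% and 14.1%). Smoke against forced air lowered 5, 6 and 3 of them at 2, 12 and 24 weeks (all genes 3.72%, 10.5% and 6.68%). It raised 0, 1 and 0 (5.4%, 12.5% and 11.1%). Markers of other cells also differed in the room air group. Of 5 measured neutrophil markers 4 were higher in smoke-to-room-air mice than in forced air mice at 24 weeks, as were 4 of 5 B cell markers. None was lower (all genes 9.8% higher and 5.32% lower). The summed neutrophil signal was 3871 to 4226 in room air mice and 1811 to 3206 in forced air mice, and the summed B cell signal 1830 to 2954 in room air mice and 777 to 2880 in forced air mice, so the B cell sums overlapped. Fibroblast markers were higher in 3 of 6, and lower in none, with summed signals of 4780.2 to 5402 in room air mice and 3830.4 to 4325 in forced air mice, which did not overlap. Against smoke-to-forced-air mice, where Fkbp5 fell, none of the 5 neutrophil and none of the 5 B cell markers was called. Of 6 fibroblast markers 1 was higher. Few genes of any kind were called there (0.965%). The summed neutrophil signal did not overlap, with 3871 to 4226 in room air mice and 1905 to 3395 in smoke-to-forced-air mice. B cell sums overlapped (1830 to 2954 and 1411 to 2297), as did fibroblast sums (4780.2 to 5402 and 4304 to 4970). The part of these cells in the differences of the room air group, that of Fkbp5 included, was not tested.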

How the data were processed

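Per the submitters' processing notes, the authors made the deposited signal intensity values with MAS5, whose version no source used here gives. The 2% trimmed mean was 150 on every array. MAS5 also gave the detection p-value that the authors deposited beside each signal. A probe set was kept where 50% or more of the arrays of some group had a p under 0.05 (35615 of 45101), after which 16 was added to each signal and the log2 taken. Each gene took its brightest kept probe set. Genes were named from GEO's platform annotation: 34945 probe sets had 1 symbol, 932 several, 9160 none, and 64 were controls. The 9 groups were fitted together in R 4.3.3 with limma 3.58.1 (eBayes with trend, two-sided, Benjamini-Hochberg over 15030 genes). Replicates are mice, numbered in accession order. On simulated data for forced air at 2 weeks against untreated, 92 of 100 genes changed by 0.5 log2 and 100 of 100 changed by 1 were called. There were 7 false calls among the rest of the 15030 genes, which were left unchanged. In the measured data 23.2% of genes were called in this comparison, so the simulation had far fewer changed genes.

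The members and lists were chosen with earlier results of these data known. Named genes are the 8 members, Cyp1b1, the called genes of each pathway list with the 3 largest changes in a comparison, and the 3 genes most like each member; Per1, Per2, Arntl and Dbp as clock examples, and Scnn1b, Mt2, Mfsd2a, Crispld2, Hsd11b1, Hsd11b2 and Adm across times or groups, were chosen after their values were seen. Alternatives were the pseudocount, filter, normalization, probe sets, samples fitted, covariates, variance trend, a minimum change and leaving out arrays.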

Additional observations from a re-analysis of the deposited data

Results flagged for a closer look

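Single mice stood apart from their group in 3 of the 72 sets of values of 1 gene in 1 group that were tested with Dixon's criterion, and chance alone flags about 1 in 20. For Sgk1, forced air replicate 1 at 12 weeks had a signal of 1972.1, against 1563 to 1691 in the 5 others, and smoke replicate 2 at 24 weeks had 2208.9, against 1718 to 1842 in the 5 others. For Cdkn1a, smoke replicate 4 at 24 weeks had 455.33, below the 507 to 519 of the other 5 mice. The effect of smoke on Zbtb16 differed between 24 and 2 weeks of exposure by -1.6055 on the log2 scale (SE 0.52, 95% interval -2.64 to -0.57, adjusted p = 0.049 over all genes, limma). Smoke minus forced air was -1.21 at 24 weeks, called, and 0.40 at 2 weeks, not called.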

How the results depend on the processing

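No result of the 8 genes that was called reversed its direction. Of 1760 values under other settings 1667 stayed called or stayed not called, 51 lost the call and 42 gained it. Of 2088 values with 1 array left out 2008 stayed as they were, 55 lost the call and 25 gained it. Values that were not called in either fit count as unchanged here even where their sign changed. The counts below are of the 8 genes called, with the count in the report in brackets, and the cause of each change was not tested unless named. With all kept probe sets, each of the 8 genes was counted by its probe set with the lowest p, a choice that favours calls by construction. With a minimum change of 1 log2, which removes smaller calls by construction, the count was 1 for forced air at 24 weeks against 2 weeks (3) and against untreated (4), for smoke at 24 weeks (4) and smoke-to-room-air (5) against forced air and for smoke at 12 weeks against untreated (2), and 0 in 11 other comparisons, and the smoke effect at 24 minus 2 weeks stayed at 1. The smoke effect at 24 minus 2 weeks (1) had 0 with the 3′/5′ ratios or the title number as covariates, with ranges of title numbers as a block, without the detection filter and without the variance trend, and 2 with all kept probe sets or quantile normalization. The effect at 12 minus 2 weeks (0) had 1 with the 3′/5′ ratios, all probe sets, quantile normalization, the block, and without the 7 arrays with a ratio over 1.8, an alternative chosen after seeing the data. Quantile normalization gave 4 for forced air against untreated at 2 weeks (2), 2 for smoke against forced air at 2 weeks (1), 1 for smoke-to-forced-air against forced air (0) and 3 against smoke (1). All probe sets gave 4 for forced air at 12 weeks against untreated (2) and 2 for smoke-to-forced-air against forced air (0), where the block and leaving out the 7 arrays gave 1. Forced air at 12 weeks against 2 weeks (0) had 1, and smoke at 24 weeks against untreated (2) had 1, with the 3′/5′ ratios, with only the compared groups and with the block. Smoke-to-forced-air against smoke (1) had 2 with only the compared groups. Smoke-to-room-air against untreated (1) had 0 with the 3′/5′ ratios, only the compared groups or the 7 arrays left out, and 2 with all probe sets, quantile normalization or the block.

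Leaving out each array in turn gave 0 to 1 for forced air at 12 weeks against 2 weeks, for smoke-to-forced-air against forced air and for the smoke effect at 12 minus 2 weeks, and 0 to 2 for the effect at 24 minus 2 weeks and for smoke-to-room-air against untreated. It gave 2 to 4 for forced air at 12 and 24 weeks against untreated, forced air at 24 against 2 weeks and smoke against forced air at 24 weeks, 2 to 3 for smoke against forced air at 12 weeks and forced air against untreated at 2 weeks, 1 to 3 and 1 to 2 for smoke against untreated at 12 and 24 weeks, 1 to 2 for smoke-to-room-air against smoke-to-forced-air and 4 to 5 against forced air. The other 5 counts did not move. Over all genes, the share called for forced air at 12 weeks against untreated was 1.32% without the 7 arrays and 5.76% with them, and at 2 weeks 12.3% and 23.2%. No paired analysis was possible because the labels and columns carry no replicate numbers shared between groups, and replicates were numbered in accession order. Dim genes such as Hif3a had more spread, and the number of arrays limits the precision.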
